A study of Mus musculus and Meriones unguiculatus with 4 samples.

Results

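The hedgehog pathway was followed here through 9 genes: the ligand gene Shh, the receptor genes Ptch1 and Smo, the ligand-binding genes Hhip, Gas1 and Boc, and the transcription factor genes Gli1, Gli2 and Gli3. They were chosen by symbol, and each was found once among the 27632 mouse loci and once among the 25745 gerbil genes. All 9 were among the 13325 genes matched between the species and the 10162 that passed a minimum mean level of 1. RNA came from the enamel knot region of wild-type tooth germs, labelled as epithelial cells, with 2 samples per species. The mouse embryos were at embryonic day 13 and the gerbil embryos at embryonic day 15. The tissue was fixed and frozen-sectioned, and laser microdissection isolated the region. The mouse libraries are called PEK and SEK and the gerbil libraries E21 and E23, after the part of their column names that differs. What these endings stand for is not stated, and neither E21 nor E23 is the labelled stage. The 2 libraries of a species may therefore not be replicates, and nothing says that they came from separate animals, so each SD and SE may hold a stage or regional difference or be technical.

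The enamel knot is a signalling centre in the dental epithelium, and Shh is one of the signals it secretes. In the absence of ligand, the receptor Patched holds Smoothened inactive and Gli proteins, Gli3 above all, act as repressors. Ligand binding to Patched releases Smoothened, Gli proteins then activate transcription, and Ptch1, Hhip and Gli1 are themselves standard targets, so that the pathway induces its own inhibitors. Gas1 and Boc encode coreceptors that help Patched bind the ligand.

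Levels are the authors' per-length values (FPKM in mouse, TPM in gerbil), rescaled so that the 13325 matched genes of a library sum to 1000000. Gerbil levels rose against mouse levels with transcript length: the median log2 difference was -1.16 over the 1017 shortest transcripts and 2.06 over the 1017 longest. Log2 differences between species, taken on log2(level + 1), therefore carry a correction for length unless said otherwise, while printed levels do not. The word called is kept for genes whose 2 libraries in one species each exceeded each library of the other species by 2-fold or more on the corrected scale. Under an alternative, the same rule is applied to the scale and libraries named. With 1 library left out it is easier to meet. The species were compared without a significance test, because each table had its own normalization and permuting 2 against 2 libraries cannot bring an exact two-sided p under 0.333. In bulk tissue, fewer cells of a type and less RNA per cell cannot be told apart.

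Of the 9 hedgehog genes, 1 was called higher in gerbil and 0 higher in mouse. The background over all 10162 genes was 13.4% called higher in gerbil and 14.7% called higher in mouse. The median log2 difference of the 9 genes was 0.17, beside -0.02 over all genes. The ligand stood at like levels in both species, the receptor gene Ptch1 was higher in gerbil, and the other 7 genes met neither criterion. The 9 genes are long as a group, with a median exon length of 4451 bases against 3381.5 over all genes tested, so the length correction lowers most of their differences.

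**Figure D1:**
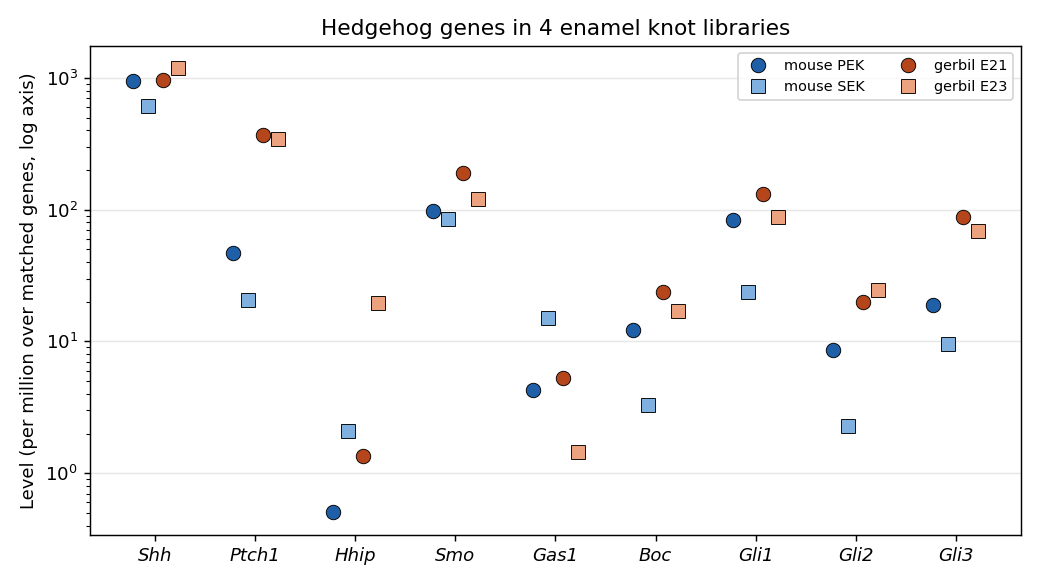
Level of each hedgehog gene in the 4 libraries (rescaled per-length values on a log axis; 1 point per library, blue for mouse and orange for gerbil). Shh is the highest of the 9 genes in every library, and Ptch1 sits at 366 and 345 in gerbil, well above 46.5 and 20.8 in mouse.

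Shh was the most abundant of the 9 genes in every library. Its level was 946 in mouse PEK, 609 in mouse SEK, 963 in gerbil E21 and 1186 in gerbil E23, which placed it at rank 136, 314, 82 and 67 of the 13325 matched genes. The gerbil libraries were above the mouse libraries on this scale, by a margin smaller than the gap between the 2 libraries of either species. After the length correction the groups overlapped, and the log2 difference was 0.03 ± 0.32 (SE, n = 2 per species). The deposited values were 416 and 297 FPKM in mouse and 128 and 139.5 TPM in gerbil. The mouse locus is chr5:28456810-28467256 of GRCm38, on the minus strand. The other hedgehog ligand genes were near or at 0. In mouse, Ihh was at 0.342 in PEK and 0.271 in SEK and Dhh at 0.156 and 0.157. In gerbil both genes were listed at 0 in each library.

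Ptch1, which encodes the Patched receptor that binds Shh and restrains Smoothened, was the hedgehog gene called different. Its level was 46.5 in PEK and 20.8 in SEK, and 366 in E21 and 345 in E23. Both gerbil libraries stood far above both mouse libraries, and the gerbil values lay close together. The gerbil mean was 356 ± 14.9 and the mouse mean 33.7 ± 18.2 (SD, n = 2 each). The corrected log2 difference was 1.53 ± 0.19, and it was 2.84 with median centring in place of the length correction. In rank among the 13325 matched genes, Ptch1 was 353 in E21 and 389 in E23, against 3862 in PEK and 5248 in SEK. Ptch1 is long, at 7803 bases, and these ranks and the mean levels still hold the trend with length. The deposited values were 20.5 and 10.1 FPKM in mouse and 48.6 and 40.6 TPM in gerbil. The mouse locus spans chr13:63508179-63573598 of GRCm38, on the minus strand.

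Relative to Shh in the same library, Ptch1 was at 38.1% in E21 and 29.1% in E23, against 4.92% in PEK and 3.41% in SEK. This ratio does not depend on how libraries were scaled, although a trend with length still enters it. The ratio of Ptch1 to Smo, a second receptor component of the pathway, was 1.92 in E21 and 2.86 in E23, against 0.477 in PEK and 0.244 in SEK. Smo exceeded Ptch1 in both mouse libraries, and Ptch1 exceeded Smo in both gerbil libraries, with the length correction as without it.

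**Figure D2:**
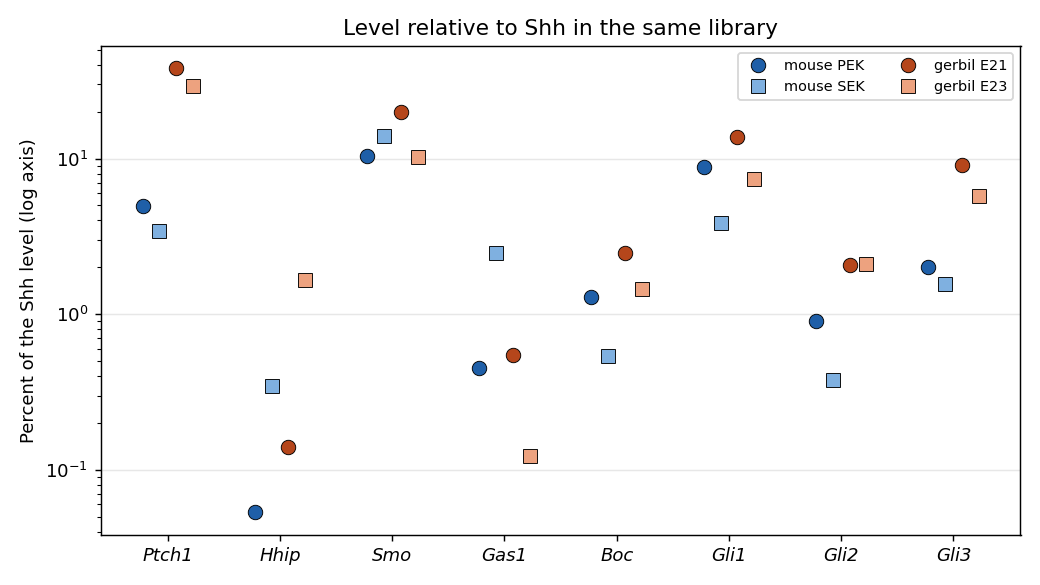
Level of each hedgehog gene as a percentage of the Shh level in the same library (no length correction, log axis, 1 point per library). Ptch1 is at 38.1% and 29.1% in the gerbil libraries, above the 4.92% and 3.41% of mouse, while Smo lies between 10.2% and 19.9% in all 4.

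The sequence upstream of a mouse start site is given for Ptch1, as the gene called different, and for Gli2, as the member whose window held a partial match to the binding sequence of Gli proteins. RefSeq windows (GRCm38.p6) were found for 6 of the 9 genes. Only the 250 bases before each start were searched, on both strands, for the Gli consensus GACCACCCA and for its inner part ACCACCC, which the longer word contains. The consensus occurred in 0 of the 6 member windows and in 0.225% of all 32851 windows. The inner part occurred in 3.92% of all windows and in the Gli2 window, 205 bases before the start. There it lies on the opposite strand, so that the printed strand reads GGGTGGT. Capitals mark that match, and sequences run 5′ to 3′ along the gene.
Ptch1, chr13:63565736-63565985, minus strand: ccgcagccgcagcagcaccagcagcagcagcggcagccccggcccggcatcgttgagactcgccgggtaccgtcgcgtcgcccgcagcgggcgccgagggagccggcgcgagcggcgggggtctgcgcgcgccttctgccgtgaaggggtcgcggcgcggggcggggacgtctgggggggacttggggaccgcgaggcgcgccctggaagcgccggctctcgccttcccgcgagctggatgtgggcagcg
Gli2, chr1:119053620-119053869, minus strand: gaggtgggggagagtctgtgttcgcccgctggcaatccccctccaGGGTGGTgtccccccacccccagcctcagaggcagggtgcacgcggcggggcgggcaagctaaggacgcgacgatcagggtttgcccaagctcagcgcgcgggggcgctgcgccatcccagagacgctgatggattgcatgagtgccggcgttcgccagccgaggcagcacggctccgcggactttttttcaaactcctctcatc
The Ptch1 window belongs to a start inside the mouse locus as deposited, which extends further upstream. The windows of the 6 genes were rich in G and C, at 58.8% to 78.4% against a median of 52.4% over all windows, and a match of letters is a description and not evidence of binding.

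Hhip, which encodes a membrane protein that binds and sequesters hedgehog ligand, was low in 3 libraries and higher in gerbil E23. Its level was 0.504 in PEK, 2.11 in SEK, 1.36 in E21 and 19.5 in E23. The deposited gerbil values were 0.18 TPM in E21 and 2.30 in E23, and those of mouse were 0.221 and 1.03 FPKM. The groups overlapped, and the log2 difference between species was -0.48 ± 1.84. That value depended on E23. Without it, Hhip was called higher in mouse at -2.12, and without E21 the difference was 1.10 and not called. The rule is easier with 1 library left out. Without E23, 1865 of all genes were called higher in mouse, against 1492 with all libraries. Hhip (chr8:79965849-80058006, minus strand) has the longest exon sequence of the 9 genes, at 9074 bases, and its difference turned positive with median centring and no length correction (1.05).

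Smo, which encodes the signal transducer Smoothened, was at 97.5 in PEK, 85.0 in SEK, 191 in E21 and 121 in E23. Gerbil E21 was above the other 3 libraries, and E23 was nearer to mouse than to E21. The corrected log2 difference was -0.18 ± 0.31, with overlapping groups. As a share of Shh, Smo was at 10.3% and 14.0% in mouse and 19.9% and 10.2% in gerbil, so that the species overlapped here too. The locus is chr6:29735503-29761365 on the plus strand.

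The coreceptor genes were expressed at low levels. Boc was at 12.2 in PEK, 3.30 in SEK, 23.7 in E21 and 17.1 in E23, with a corrected log2 difference of 0.31 ± 0.59. SEK was the low library, and PEK was nearer to E23 than to SEK. Gas1 was at 4.29 in PEK, 15.0 in SEK, 5.28 in E21 and 1.44 in E23, so that SEK was the high library and PEK lay beside E21. Its deposited gerbil values were 0.70 and 0.17 TPM, and with no depth used here their precision was not assessed. The log2 difference of -1.70 ± 1.05 met neither criterion, but Gas1 was called higher in mouse without PEK (-2.53) and without E21 (-2.39). The rule is easier with 1 library left out. Over all genes, 2045 were higher in mouse without PEK and 1918 without E21, against 1492 with all libraries. Boc lies at chr16:44485045-44558897 and Gas1 at chr13:60174405-60177365, both on the minus strand.

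**Figure D3:**
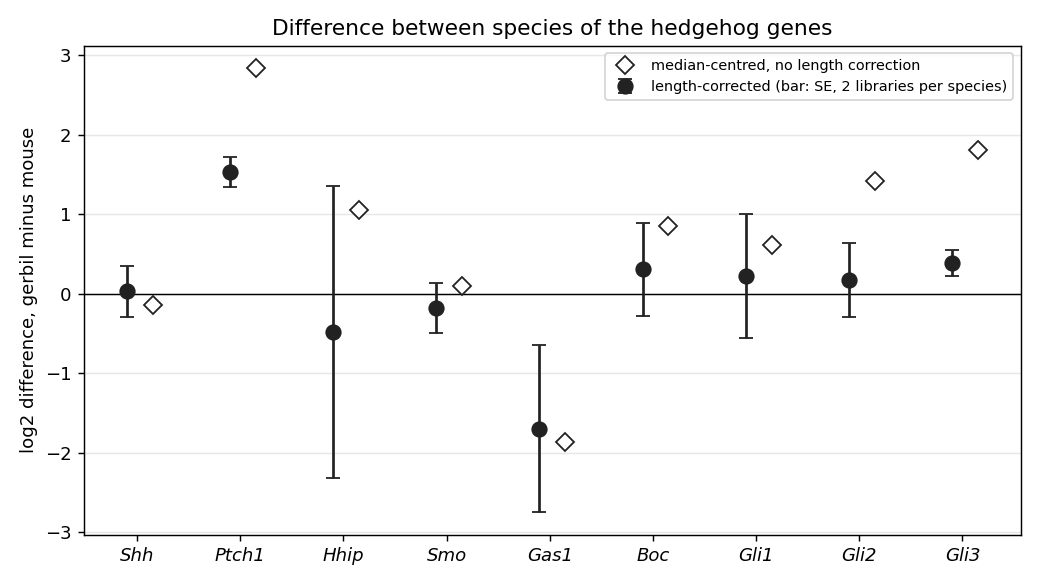
Log2 difference between species, gerbil minus mouse, for the 9 hedgehog genes. Filled circles are length-corrected with the SE from 2 libraries per species, and open diamonds are median-centred with no length correction. Ptch1 is at 1.53 and 2.84, Shh is near 0 on both scales, and Gli2 and Gli3 move from 0.17 and 0.38 to 1.41 and 1.80.

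The Gli genes did not differ by the rule. Gli1, a target of the pathway and an activator within it, was at 83.7 in PEK, 23.6 in SEK, 131 in E21 and 88.1 in E23. Gerbil E23 and mouse PEK were close, and mouse SEK was far below. The corrected log2 difference was 0.22 ± 0.78, and it took opposite signs without PEK (0.98) and without SEK (-0.57). The Gli1 to Ptch1 ratio was 1.80 and 1.14 in mouse and 0.359 and 0.255 in gerbil. On these levels Gli1 exceeded Ptch1 in both mouse libraries and was below it in both gerbil libraries. Ptch1 has the longer transcript (7803 against 4057 bases), and on the length-corrected log2 scale Gli1 was above Ptch1 in PEK (0.57) but below it in SEK (-0.52), E21 (-0.997) and E23 (-1.57).

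Gli2, the main activator in many tissues, was at 8.55 in PEK, 2.28 in SEK, 19.8 in E21 and 24.7 in E23. Gli3, the main repressor, was at 18.9 in PEK, 9.57 in SEK, 88.1 in E21 and 68.4 in E23. Both gerbil libraries exceeded both mouse libraries for each gene on the scale of levels. These are among the longest transcripts of the list, at 6637 and 8328 bases, and the corrected log2 differences were 0.17 ± 0.47 for Gli2 and 0.38 ± 0.16 for Gli3. With median centring and no length correction, Gli3 was called higher in gerbil (1.80) and Gli2 was not (1.41). On that scale 2 of the 9 genes were called higher in gerbil and 0 in mouse, where the backgrounds were 18.4% and 19.4%. The Gli1 to Gli3 ratio within a library was 4.43 and 2.47 in mouse and 1.49 and 1.29 in gerbil, and Gli1 was the more abundant in all 4 libraries. With the length correction it stayed so, but the species overlapped, at log2 1.77 and 0.46 in mouse and 1.07 and 0.84 in gerbil. The Gli2 to Gli3 ratio overlapped between species, at 0.452 and 0.239 in mouse and 0.225 and 0.361 in gerbil. Gli1 lies at chr10:127329878-127341955 and Gli2 at chr1:118834132-119053619, both on the minus strand, and Gli3 at chr13:15463235-15730029 on the plus strand.

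The order of the more abundant genes differed between the species. By mean level in gerbil, Shh was followed by Ptch1, Smo, Gli1 and Gli3. In mouse, Shh was followed by Smo, Gli1, Ptch1 and Gli3. In mouse Gli1 (53.6 ± 42.5, SD) was above its neighbour Ptch1 (33.7 ± 18.2) in both libraries. Gas1 (9.62 ± 7.54), Boc (7.75 ± 6.29) and Gli2 (5.42 ± 4.43) lay close together, with Boc above Gli2 in both libraries. Gas1 was the lowest of these in PEK and the highest in SEK. In gerbil Smo (156 ± 49.9) was above Gli1 (110 ± 30.7) in both libraries. The order of Gli2 (22.3 ± 3.47) and Boc (20.4 ± 4.71) turned between E21 and E23. All these orders are on levels without length correction.

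Within mouse, most of the receiving genes were lower in SEK than in PEK. There was 1 library on each side and no test, so these are descriptions of 2 libraries. On log2(level + 1), without length correction, Gli1 was lower by 3.44-fold, Boc by 3.07-fold, Gli2 by 2.91-fold and Ptch1 by 2.18-fold. Thus 4 of the 9 genes were at least 2-fold lower in SEK, where 17.1% of all genes were. Gas1 (3.02-fold) and Hhip (2.07-fold) were at least 2-fold higher in SEK, as were 5.88% of all genes. Shh (log2 -0.63), Gli3 (-0.91) and Smo (-0.20) changed by less than 2-fold. With the length correction, Ptch1 (-0.38) and Gli2 (-0.87) no longer reached 2-fold, and Gli1 (-1.47) and Boc (-1.11) still did. The difference of Hhip was log2 1.05 without the correction and 1.85 with it, and 1.87 with a pseudocount of 0.1, while Gas1 was at 1.59 and 1.62. Ptch1 also stayed under 2-fold with median centring (-0.92). Knot markers were lower in SEK as well, from a summed level of 5350 to 3245, with 7 of 14 at least 2-fold lower. Of the 13 mesenchyme markers, 5 were at least 2-fold lower in SEK (Pax9, Lhx6, Lhx8, Prrx1 and Twist1) and 3 at least 2-fold higher (Barx1, Col1a1 and Col3a1), with a median of -0.70 against -0.21 over all genes. The part of mesenchyme in the lower values of the receiving genes was not tested. Summed muscle markers were at 119 in PEK and 429 in SEK and endothelium markers at 5.61 and 16.1, and the part of these tissues in the Gas1 and Hhip values was not tested.

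**Figure D4:**
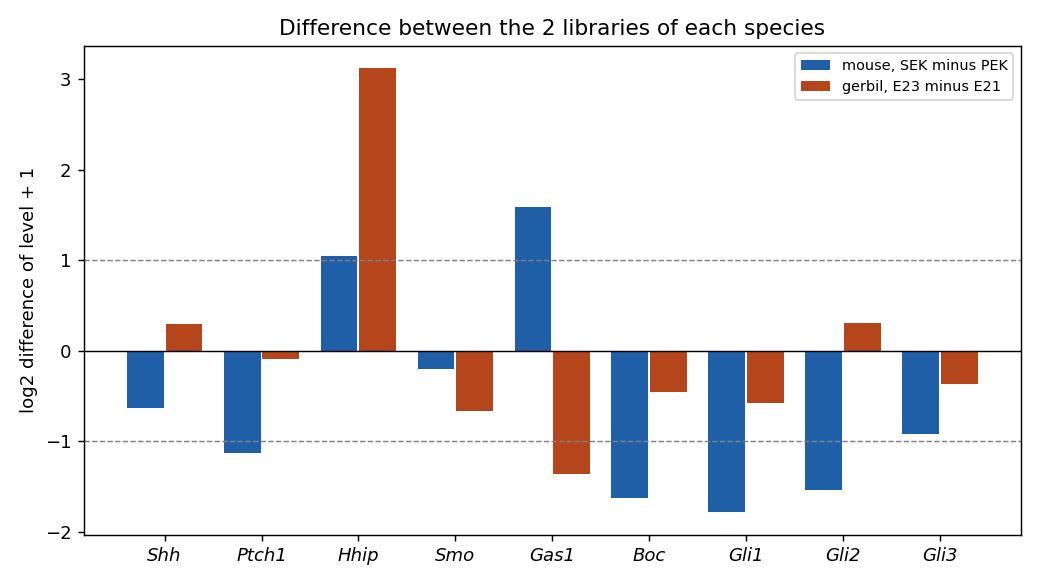
Log2 difference of level + 1 between the 2 libraries of a species, SEK minus PEK in mouse (blue) and E23 minus E21 in gerbil (orange), with dashed lines at 2-fold. Gli1, Boc, Gli2 and Ptch1 pass the lower line in mouse, and Hhip passes the upper line in both species.

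Within gerbil, 2 of the 9 genes differed by 2-fold or more between the libraries. Hhip was 8.72-fold higher in E23 than in E21 on log2(level + 1), and Gas1 was 2.57-fold lower, while the other 7 genes changed by less than 2-fold. Over all genes, 5.83% were at least 2-fold higher in E23 and 3.95% lower. In deposited TPM, Hhip was at 0.18 and 2.30 and Gas1 at 0.70 and 0.17, so both differences rest on low values in at least 1 library. Ptch1 (log2 -0.09) changed least of the 9 genes, and Smo (-0.66) and Gli1 (-0.57) were lower in E23 by less than 2-fold. Summed endothelium markers were at 1.28 in E21 and 116 in E23, and all 5 were at least 2-fold higher in E23, with Pecam1 at 0.302 and 24.1. Blood and immune markers were at 6.63 and 30.4. The part of these tissues in the Hhip value was not tested.

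Of 26 other measured genes of the pathway, 1 (3.85%) was called higher in gerbil and 4 (15.4%) higher in mouse, beside the 13.4% and 14.7% of all genes. Of 4 measured genes of ligand release and reception, 0 were called higher in either species. Scube3 (442 ± 85.9 in gerbil and 138 ± 95.3 in mouse, log2 -0.24 ± 0.41) and Scube1 (330 ± 25.0 and 136 ± 25.2, -0.42 ± 0.14), which encode secreted proteins of the family that helps release hedgehog ligand from cells, were the most abundant uncalled genes of that list. Their printed levels are higher in gerbil, and the sign turns with the length correction, since median centring alone gave 1.22 and 0.66. The list's median log2 difference was -0.33.

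Of 16 measured genes of transduction and the cilium, in which vertebrate hedgehog signalling takes place, 1 was higher in gerbil and 2 in mouse. The shares over all genes were 13.4% and 14.7%, and the median difference of the list was -0.06. Gpr161, which encodes a ciliary receptor that restrains the pathway, was at 5.67 in PEK, 2.59 in SEK, 48.3 in E21 and 36.9 in E23 (log2 1.34 ± 0.16). Arrb2, encoding beta-arrestin 2, was at 161 in PEK, 113 in SEK, 32.9 in E21 and 22.4 in E23 (-1.99 ± 0.46). Spop, whose product directs the breakdown of Gli proteins, was at 145 in PEK, 128 in SEK, 79.5 in E21 and 78.7 in E23 (-1.33 ± 0.06). All 3 kept their calls with median centring and no length correction. Gpr161 lost its call at a minimum level of 10 (1.15), and Spop lost its call with no length correction and no centring (-0.78) and with no filter (-0.97). The most abundant uncalled genes were Csnk1a1 (747 ± 53.8 in gerbil and 217 ± 21.4 in mouse, -0.09 ± 0.24), a kinase gene, and Prkar1a (303 ± 23.5 and 315 ± 107, -1.05 ± 0.53), a regulatory subunit of protein kinase A. Csnk1a1 was among the 5 genes of this list called higher in gerbil on the median-centred scale (1.15), and 2 were called higher in mouse. The shares over all genes on that scale were 18.4% and 19.4%.

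Of 6 measured genes listed as hedgehog targets, 0 were higher in gerbil and 2 in mouse. The shares over all genes were 13.4% and 14.7%, and the median difference of the list was -1.14. Ccnd2, encoding cyclin D2, was at 4541 in PEK, 2452 in SEK, 432 in E21 and 305 in E23 (log2 -5.06 ± 0.24). Bcl2, an inhibitor of apoptosis, was called at -1.54 ± 0.21, but with median centring and no length correction its difference was 0.00082. Ccnd1 (548 ± 107 in gerbil and 148 ± 22.4 in mouse, 1.00 ± 0.36) and Mycn (87.3 ± 19.8 and 110 ± 44.7, -0.74 ± 0.42) met neither criterion, although Ccnd1 was called without SEK (1.26), as was Prkar1a, higher in mouse, without PEK (-1.55). The rule is easier with 1 library left out. Over all genes, 1750 were higher in gerbil without SEK and 2045 in mouse without PEK, against 1358 and 1492 with all libraries. The direct target Ptch1 and the listed target Ccnd2 stood on opposite sides between the species.

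**Figure D5:**
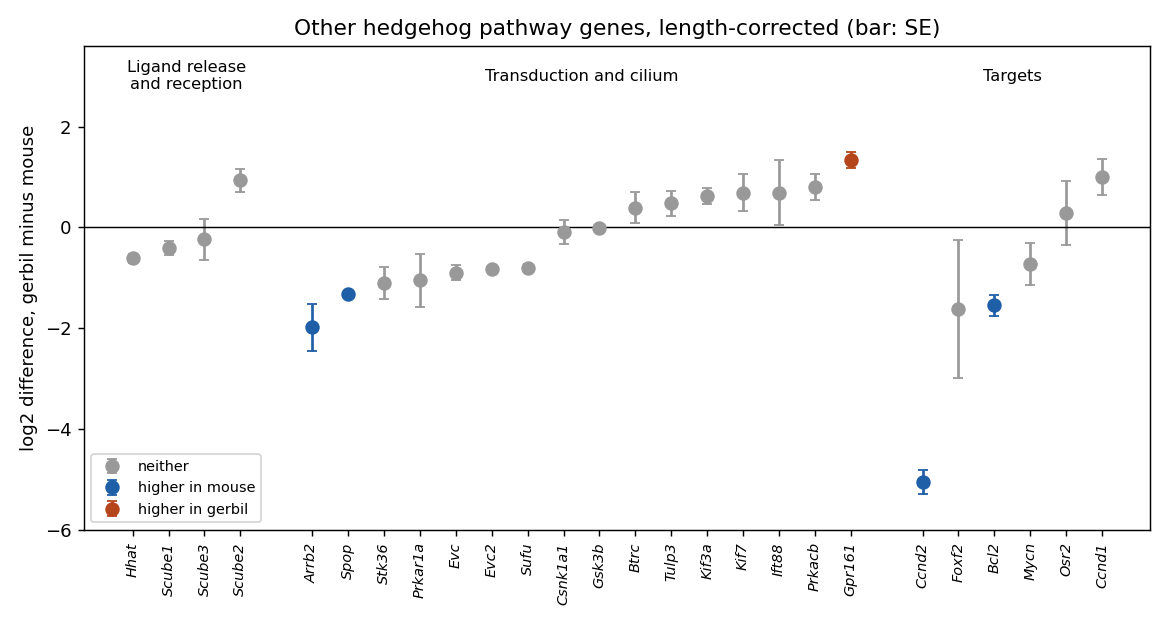
Length-corrected log2 difference, gerbil minus mouse, of the other measured hedgehog genes in 3 lists, with the SE from 2 libraries per species; colour marks the call. Gpr161 (1.34) is the 1 gene called higher in gerbil, and Arrb2, Spop, Ccnd2 and Bcl2 are called higher in mouse.

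Markers of the region were present in all 4 libraries, and those of the knot were on balance lower in gerbil. Of 14 measured enamel knot markers other than Shh, 6 were called higher in mouse and 0 in gerbil, from Cdkn1a (-5.07 ± 0.41) to Dkk4 (0.18 ± 1.74). Over all genes tested, 14.7% were called higher in mouse and 13.4% in gerbil. Summed knot markers were at 3245 to 5350 in mouse and 1047 to 1416 in gerbil, and summed epithelial markers at 5582 to 8364 and 8058 to 9116. Mesenchyme markers, of cells that receive Shh from the epithelium, were at 1287 to 1524 in mouse and 3686 to 3817 in gerbil. They ranged from Barx1 (-2.73 ± 0.75) to Tnc (5.74 ± 0.88), with 1 of 13 called higher in gerbil and 2 in mouse. Among the knot markers, Fgf20 was listed at 0 in E23, and no mesenchyme or epithelial marker was at 0 in any library. The gerbil sum was carried by the matrix genes Tnc, Col1a1, Col1a2 and Col3a1, at 2860.5 to 3029 together in gerbil and 146 to 404 in mouse. Summed levels hold the trend with length, and these genes are long, at 5348 to 7772 bases. With the length correction Tnc was called, and Col1a1 (0.39 ± 1.52), Col1a2 (1.51 ± 0.80) and Col3a1 (1.45 ± 1.13) were not. The other 9 markers summed to 1120 to 1142 in mouse and 788 to 826 in gerbil, a split chosen after the values were seen. The list's corrected median was -0.24, below 0 while the sum was higher. The part of mesenchyme in the Ptch1 difference was not tested. Of 6 measured muscle markers, 4 were called higher in mouse and 0 in gerbil. They summed to 119 to 429 in mouse and 3.62 to 11.6 in gerbil. Neural markers had 1 of 3 called higher in mouse, blood and immune markers 1 of 3 in gerbil, and endothelium markers 0 of 5. The part of these tissues in the differences between species was not tested.

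The genes nearest to Shh and Ptch1 in pattern were looked up among 8091 other genes whose mean level reached 10, by the largest gap between centred corrected log2 levels over the 4 libraries. For Shh they were Gabarap (largest gap 0.03), Klhl5 (0.04) and Pik3cb (0.06). For Ptch1 they were Npat (0.04), Nadk2 (0.04) and Kif2a (0.04). Over 4 libraries, a close pattern carries little information, and nothing is said of what these genes share.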

How the data were processed

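RNA of the laser-dissected enamel knot region was sequenced from SMARTer mRNA-Seq libraries, per the labels' protocols. Per the submitters' processing notes, the tools included STAR 2.7.1a, RSEM 1.3.1 and cutadapt 2.8, with no roles given, and the mouse builds were GRCm38 and mm10. For gerbil, the sources used here name no build. The deposited mouse values are FPKM per locus and the deposited gerbil values are TPM per gene, both per the file headers. The columns show the species and not the sample, so 1 measure per table was used, and 4 other gerbil columns, of read counts and RPKM per sample, were left out. Depth was therefore not used for any library, and the intended RPKM alternative and read intervals were not run.

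Genes were matched by symbol, ignoring case, where it occurred once per table. Along transcript length (GENCODE M21 basic exon union, 40 bins), each library's running median deviation from the gene means was subtracted. All 9 member loci overlapped their annotated gene on the same strand. The pseudocount was 1. The alternatives were other scaling, filters, pseudocount and length handling, and leaving out each library.

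The members, the gene lists and the length correction were chosen with earlier results of these data known. Named genes are all members, the called genes of each list of other pathway genes with its 2 most abundant uncalled genes, the extremes of the knot and mesenchyme lists, and 3 genes of like pattern for Shh and Ptch1. Genes named beyond this are Ihh, Dhh, Pecam1, Fgf20 and the mesenchyme markers given beside the extremes, and in the closing section Cdon, Disp1, Prkaca, Gpc3, Gpc4 and Lrp2, chosen after their values were seen. For 1 pathway gene, the results are not reported here. The steps were tested on simulated data with Python 3.11.15.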

Additional observations from a re-analysis of the deposited data

How the results depend on the processing

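Ptch1 was called higher in gerbil under every alternative run for it, from 1.37 without mouse SEK to 3.47 with no length correction, and leaving out 1 library each gave 1.37 to 1.70. Some of these runs could hardly have lost the call. The rule is easier to meet with 1 library left out, and the length correction lowers the difference of a long gene such as Ptch1. With no length correction and no centring, the median of all genes was 0.62 (-0.02 with the correction), and Shh was at 0.49, Smo at 0.73, Gli1 at 1.25, Hhip at 1.69 and Boc at 1.49, not called, while Gli2 (2.05) and Gli3 (2.44) were called higher in gerbil. The count of hedgehog genes higher in gerbil was then 3. The other lists had, in gerbil and mouse, 2 and 0 genes of release and reception, 7 and 1 of transduction and 1 and 1 targets. Of all 10162 genes, 3021 were then higher in gerbil and 1209 in mouse, against 1358 and 1492 with the correction. With median centring and no length correction, an alternative added after seeing the data, Gli2 was at 1.41 and Gli3 was called (1.80). Higher in gerbil were then 2 hedgehog genes and 5 transduction genes, beside 18.4% of all genes. Higher in mouse were 2 transduction genes and 1 target, beside 19.4% of all genes. With no filter Shh was at 0.36 and Gli3 at 0.61, and 1 transduction gene and 1 reception gene were higher in mouse. With a minimum of 10, Gli3 was at 0.089 and 0 transduction genes were higher in gerbil, while Hhip and Gas1 fell below the minimum. Over all genes, 1052 were then higher in gerbil and 1156 in mouse. Without the length correction, uncentred and median-centred, Csnk1a1 was called higher in gerbil (1.78 and 1.15), and Bcl2 was at 0.63 and 0.00082 and not called, while Scube1 was called at 1.29 uncentred. A pseudocount of 0.1 called 1 reception gene higher in gerbil, as it did 1505 of all genes.

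Leaving out 1 library each gave -0.26 to 0.29 for Shh, -0.47 to 0.20 for Smo, -0.57 to 0.98 for Gli1, -0.22 to 0.58 for Gli2, 0.21 to 0.51 for Gli3, -2.12 to 1.10 for Hhip, -2.53 to -0.96 for Gas1 and -0.26 to 0.85 for Boc. It gave 1 hedgehog gene higher in gerbil each time and 0 to 1 in mouse, 0 to 1 reception genes and 0 to 1 targets in gerbil, 0 reception genes and 2 to 3 targets in mouse, and 1 to 2 and 2 to 3 transduction genes. Over all genes it gave 1666 to 1935 and 1865 to 2045, against 1358 and 1492 with all libraries. Within mouse, Ptch1 lost its 2-fold difference with median centring (-0.92) and, as did Gli2 (-0.87), with the length correction added after seeing the data (-0.38). At a fold of 1.5, Shh (-0.63) and Gli3 (-0.91) counted as lower in SEK and Smo (-0.66) as lower in E23. The cause of these moves was not tested. The alternative with gerbil RPKM was not run.

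No paired analysis was possible because the columns carry no sample number. With no depth used, the precision of low values such as those of Gas1 and Hhip was not assessed. The length correction changes the size of the differences of long genes. Whether the 2 libraries of a species differ in stage or region is not stated.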

Other observations

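Some hedgehog genes were in no comparison, because their symbol was not in both tables or their level was under the minimum. Cdon, which encodes a coreceptor related to Boc, was at 1.27 and 0.389 FPKM in mouse PEK and SEK. The gerbil row that its description names as the same gene carried no symbol, and it was at 1.71 and 1.83 TPM in E21 and E23. Disp1, whose product releases hedgehog ligand from the cells that make it, was at 18.5 and 7.50 FPKM in mouse. In gerbil 2 rows without a symbol are described as dispatched homolog 1 or like it. One was at 27.8 TPM in E21 and 15.8 in E23, and the other at 4.37 and 9.55, so that they moved in opposite directions. How reads were shared between these 2 rows is not stated. Prkaca, a catalytic subunit of protein kinase A, was at 47.8 and 64.7 FPKM in mouse, and its gerbil row was at 19.9 and 16.2 TPM. The glypican genes Gpc3 and Gpc4, whose products sit on the cell surface and can bind hedgehog ligand, were at 17.4 and 55.4 and at 20.7 and 18.6 FPKM in PEK and SEK. Lrp2, which encodes an endocytic receptor of hedgehog ligand, had levels under 1 in all 4 libraries. FPKM and TPM come from tables that were normalized separately, and no difference between species is given for these genes.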
